A study of Homo sapiens with 6 samples.

Results

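Wild-type mouse embryonic fibroblasts (MEFs) were set beside MDA-MB-231 cells that had received the control siRNA siNC, gene by gene, by RNA sequencing. Genes were matched on their name, ignoring case and using only names that occur a single time in each species' table, which joined 15277 genes. Of these, the 10586 at 1 RPKM (reads per kilobase of gene, scaled to the reads of the library) or more in either library were ranked, and they are the genes described here. The genes nearest the minimum were GAL3ST4, kept at 1.00 RPKM in wild-type MEFs and 0.362 RPKM in MDA-MB-231, and NRTN, left out at 0.530 RPKM in wild-type MEFs and 0.9999 RPKM in MDA-MB-231. Genes are named by their human symbol for both species.

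The libraries belong to a study of LARP7, an RNA-binding protein of the 7SK particle, which its title links to the ubiquitin ligase BRCA1. LARP7-/- MEFs and wild-type MEFs were taken from embryos at stage E13.5, used at passages 1 to 6 and grown in DMEM with 10% fetal bovine serum. MDA-MB-231, an established human breast cancer line of mesenchymal appearance, received siLARP7 or siNC at 10 ng/ml and was grown in L-15 medium with the same share of serum. HCC1937, another established human breast cancer line, received the same siRNAs in RPMI 1640 medium, and its siNC library serves as a second human line. No siRNA is named for the MEFs, and the labels list human as the organism of all 6 samples although the MEF table holds mouse gene IDs. Species, gene models, cell origin, medium and siRNA treatment therefore differ together between wild-type MEFs and MDA-MB-231 siNC and cannot be told apart. With a single library in each group, nothing below could be checked against replicates, and no test was run.

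Fibroblasts build connective tissue by secreting fibrillar collagens and the glycoproteins that organise them, and in culture they often take on a contractile, smooth-muscle-like state. Epithelial cells hold to each other and to the basement membrane through keratin-anchored junctions, laminins and the integrins that bind them. Cancer cells that have passed through an epithelial-mesenchymal transition can lose junction proteins and gain vimentin while keeping part of their epithelial programme.

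Because RPKM scales are not comparable between species, each gene received its percentile rank among the 10586 genes within each library. The difference of the ranks, wild-type MEFs minus MDA-MB-231 siNC, is given in points, and a gene is called higher or lower at 50 points or more. By this rule 409 genes (3.86%) were higher and 402 genes (3.8%) were lower in wild-type MEFs, and the median absolute difference was 14.4 points. The genes nearest the rule were RIN1 and POLR2F on the higher side, at 50.01 and 49.99 points, and B3GNT4 and SPATS2L on the lower side, at -50.1 and -49.98 points. Ranks crowd at the top of a library, so a wide difference in RPKM can be a small difference in points: THBS1, a matrix glycoprotein, stood at 1891 RPKM in wild-type MEFs and 201 RPKM in MDA-MB-231, which is 0.96 points.

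The LARP7 gene, which checks the labels, stood at 15.2 RPKM in wild-type MEFs and 8.65 RPKM in MDA-MB-231 siNC, ranks of 72.3 and 63.2. It stood at 5.72 RPKM in the knockout MEFs, 4.51 RPKM in MDA-MB-231 siLARP7, 2.89 RPKM in HCC1937 siLARP7 and 5.62 RPKM in HCC1937 siNC, so the depleted library was the lower in every pair. The depth recovered from the values was 36.9 M reads in wild-type MEFs and 49.6 M in MDA-MB-231 siNC, and 37.3 to 53.3 M in the other libraries. A single read in a gene of 1 kb was worth 0.0271 RPKM in wild-type MEFs and 0.0202 RPKM in MDA-MB-231. The 12 joined mRNA genes of the mitochondrial genome took 7.17% of the summed RPKM of joined genes in wild-type MEFs and 24.2% in MDA-MB-231, and these genes ranked near the top of both.

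Across the ranked genes the Spearman correlation of RPKM was 0.570 between wild-type MEFs and MDA-MB-231 siNC and 0.791 between HCC1937 siNC and MDA-MB-231 siNC (n = 10586 genes, which are not independent replicates). Within a cell type it was 0.974 between knockout and wild-type MEFs and 0.985 between MDA-MB-231 siLARP7 and siNC. The knockout MEF and MDA-MB-231 siLARP7 libraries, which share no library with the first pair, gave 465 genes higher (4.39%) and 410 lower (3.87%) in MEFs. All 409 higher and 402 lower genes of the first pair had the same sign there, as did 9601 of all 10586 ranked genes. Within a cell type the median absolute difference was 2.58 points in MEFs and 2.40 points in MDA-MB-231, so a called gene could hardly change sign. Of the called genes, 356 (87.0%) of the higher and 317 (78.9%) of the lower were called again. Among genes named here, the calls of MYH11, HOXA7, HMOX1 and RIN1 on the higher side were not made again, at 36.5 to 43.1 points. On the lower side those of CXCL2, NGFR, ROR1, MMP15, IL1B, ICAM1, SLC2A3, BIRC3, IL1A, CD55, IFITM1 and IL24 were not made again, at -49.4 to -15.2 points. HCC1937 siNC against MDA-MB-231 siNC gave 99 genes higher (0.935%) and 166 lower (1.57%) in HCC1937. The ranked genes had to reach the minimum in wild-type MEFs or MDA-MB-231 siNC, so genes expressed in HCC1937 alone are left out. The epithelial gene RAB25, for example, stood at 58.3 RPKM in HCC1937 siNC and was not ranked. These shares and the correlation of 0.791 may therefore understate how far the human lines differ. Knockout against wild-type MEFs gave 4 (0.0378%), STEAP4, USP18, IFIT1 and IFIT3, and MDA-MB-231 siLARP7 against siNC gave 0 (0.0%). STEAP4, a metalloreductase, and the interferon-induced genes USP18, IFIT1 and IFIT3 stood at 17.7, 12.7, 20.6 and 38.2 RPKM in knockout MEFs and at 2.23, 1.46, 2.63 and 3.62 RPKM in wild-type MEFs.

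**Figure D1:**
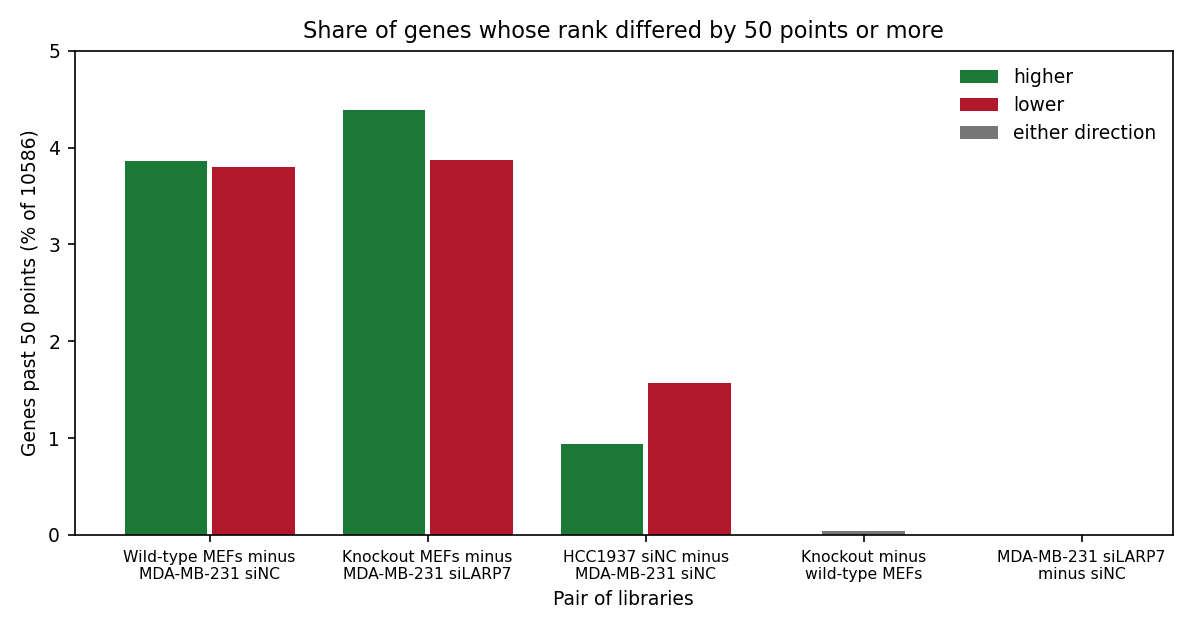
Bars give the share of the 10586 ranked genes whose percentile rank differed by 50 points or more, in % on the vertical axis, for 5 pairs of libraries on the horizontal axis, split into higher and lower or, within a cell type, in either direction. The bars of the MEF against MDA-MB-231 pairs reach 3.8% to 4.39%, those of HCC1937 against MDA-MB-231 0.935% and 1.57%, and those within a cell type 0.0378% and 0.0%. All pairs use the genes kept for wild-type MEFs and MDA-MB-231 siNC, so genes expressed in HCC1937 alone are left out.

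The most abundant genes overlapped in part. Of the 1059 genes in the top 10% of wild-type MEFs, 569 (53.7%) were also in the top 10% of MDA-MB-231, and 126 (11.9%) lay below its median. Of the 1059 in the top 10% of MDA-MB-231, 99 (9.35%) lay below the median of wild-type MEFs. The 10 highest genes of either library included MT-CO1, MT-CO2, MT-CO3, MT-ATP6, MT-ATP8 and MT-TS1 of the mitochondrial genome. The other 4 in wild-type MEFs were EEF1A1, the translation elongation factor, at 2585 RPKM, LGALS1, a galactose-binding lectin, at 2214 RPKM, THBS1 and the small nucleolar RNA SNORD68. In MDA-MB-231 the other 4 were the mitochondrial genes MT-ND3, MT-TY, MT-TA and MT-RNR2, of which MT-TY and MT-TA are short transfer RNA genes.

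Cytosolic ribosomal proteins kept close ranks in the MEF and MDA-MB-231 libraries. None of the 66 ranked members was called, against 3.86% higher and 3.8% lower of all ranked genes. Their differences ran from -2.93 to 3.56 points with a median of 0.06. Over all ranked genes the median was -0.08 points and the median absolute difference 14.4 points. RPS2, a small-subunit protein, stood at 1400 RPKM in wild-type MEFs and 479 RPKM in MDA-MB-231, at nearly the same rank. None of the 31 nuclear-encoded respiratory chain subunits was called (median 0.41 points), nor any of the 19 stress response chaperones (median -0.49 points). At the shares over all ranked genes, lists of their size would hold few calls. Both lists also ranked high, with median ranks of 90.2 and 91.6 in wild-type MEFs.

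The identity of each culture was checked on marker lists. Of 12 fibroblast markers, 10 were called higher in wild-type MEFs and none lower, against 3.86% and 3.8% of all ranked genes, with a median of 79.96 points. The summed level of the list was 2371 RPKM in wild-type MEFs and 8.68 RPKM in MDA-MB-231. The uncalled members were PDGFRA, the receptor for platelet-derived growth factor A, at 6.60 RPKM in MEFs and 0.0518 RPKM in MDA-MB-231, and DPT, which encodes the matrix protein dermatopontin, at 1.70 RPKM in MEFs and 0 in MDA-MB-231. Of the 9 ranked breast epithelial and cancer line markers, 4 were lower in MEFs and none higher (median -29.6 points). The hormone receptors ESR1 and PGR were under the minimum in both libraries, at 0.0456 and 0 RPKM in wild-type MEFs and at 0.0207 and 0 RPKM in MDA-MB-231. CD44, the hyaluronan receptor, did not separate the cells, at 109 RPKM in wild-type MEFs and 100 RPKM in MDA-MB-231.

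Markers of other cell types that an embryonic culture could hold were mostly low in MEFs, apart from the muscle actin ACTA1 and some cartilage and bone markers. Of 14 leukocyte and macrophage markers 9 were joined and 6 ranked. Their summed level was 14.4 RPKM in wild-type MEFs and 257 RPKM in MDA-MB-231, of which CD74 held 206. The 2 called, CD74 and CD68, were both lower in MEFs. By sign the list was even, with 3 members leaning to MEFs and 3 to MDA-MB-231. CSF1R, a macrophage growth factor receptor, leaned to MEFs at 3.55 RPKM there and 1.36 RPKM in MDA-MB-231 (20.1 points). The pan-leukocyte gene PTPRC was at 0.037 RPKM in wild-type MEFs and 0.00237 RPKM in MDA-MB-231. The endothelial junction genes PECAM1 and CDH5 were at 0.0392 and 0.103 RPKM in wild-type MEFs, and at 0.211 and 0.0203 RPKM in MDA-MB-231. The muscle regulator MYOD1 was at 0.0874 RPKM in wild-type MEFs and 0.056 RPKM in MDA-MB-231, and 9 of the 12 skeletal muscle markers were under the minimum in both. Of the ranked muscle markers, the actin ACTA1 was higher at 60.03 RPKM in wild-type MEFs and 0.162 RPKM in MDA-MB-231 (89.5 points), and TNNT1, slow troponin T, was lower at 0.271 RPKM in wild-type MEFs and 32.3 RPKM in MDA-MB-231. Of 3 ranked endothelial markers EGFL7 was lower, of 5 neural crest and Schwann markers NGFR was lower, and of 4 adipocyte markers none was called. The counts of these other cell types stand beside 3.86% higher and 3.8% lower over all ranked genes. In lists so short, a single call or none says little. By sign, 3 of the 5 neural crest and Schwann markers leaned to MEFs without being called, and 2, with NGFR, to MDA-MB-231. SOX10 stood at 2.03 RPKM in wild-type MEFs and 0.0163 RPKM in MDA-MB-231 (19.6 points). S100B stood at 1.32 RPKM in wild-type MEFs and 0 in MDA-MB-231 (14.2 points). The cartilage and bone markers summed to 1285 RPKM in wild-type MEFs, of which SPP1 held 1213, and to 23.1 RPKM in MDA-MB-231. Of the 7 ranked, 3 were higher in MEFs, SPP1, COL11A1 and COL2A1, whereas the bone and cartilage genes IBSP and ACAN stayed under 1 RPKM. In such bulk samples fewer cells of a type and less RNA per cell cannot be told apart, and the part of other cell types in the gene groups below was not tested.

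Several collagen chains were among the genes called higher in wild-type MEFs. COL1A1, the main chain of type I collagen, stood at 1594 RPKM in wild-type MEFs and 1.58 RPKM in MDA-MB-231, and at 1541 RPKM in knockout MEFs and 1.77 RPKM in MDA-MB-231 siLARP7. Its partner COL1A2 stood at 315 RPKM in wild-type MEFs and 0.953 RPKM in MDA-MB-231 siNC, and at 381 RPKM in knockout MEFs and 0.605 RPKM in MDA-MB-231 siLARP7. COL5A2, which belongs to the type V collagen that seeds type I fibrils, stood at 215 RPKM in wild-type MEFs and 0.124 RPKM in MDA-MB-231. In the depleted pair COL5A2 was at 187 RPKM in knockout MEFs and 0.0707 RPKM in MDA-MB-231 siLARP7. For all 3 chains both MEF libraries were high and both MDA-MB-231 libraries low. HCC1937 siNC held 0.588 RPKM of COL1A1, 0.00727 RPKM of COL1A2 and 0.0878 RPKM of COL5A2, so the human lines were alike in their low levels. Of 21 ranked collagen chains, 8 were higher in MEFs and 1 was lower, against 3.86% and 3.8% of all ranked genes, and the median was 11.2 points. The lower chain was COL13A1, a transmembrane collagen, at 0 RPKM in wild-type MEFs and 21.7 RPKM in MDA-MB-231 (-84.3 points). COL5A1, the partner of COL5A2 in type V collagen, was not called, at 296 RPKM in wild-type MEFs and 31.6 RPKM in MDA-MB-231 (8.59 points), and COL27A1, another fibrillar chain, leaned the other way (-9.10 points). In all 12 chains were not called, among them COL4A1 of basement membranes at 138 RPKM in wild-type MEFs and 6.28 RPKM in MDA-MB-231.

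Glycoproteins and proteoglycans of the matrix lay mostly on the MEF side. Of 29 ranked members 15 were higher in MEFs and none was lower, against 3.86% and 3.8% of all ranked genes, with a median of 60.8 points. FBLN2, the matrix linker fibulin 2, stood at 492 RPKM in wild-type MEFs and 0.133 RPKM in MDA-MB-231 (95.5 points), and HCC1937 siNC held 14.4 RPKM. SPARC, a collagen-binding glycoprotein, stood at 742 RPKM in wild-type MEFs and 1.51 RPKM in MDA-MB-231. POSTN, the adhesion protein periostin, stood at 29.1 RPKM in wild-type MEFs and 0 in MDA-MB-231, where 3 reads would be about 0.0111 RPKM. Fibronectin (FN1), the main adhesive glycoprotein of cell culture, was high in both, at 858 RPKM in wild-type MEFs and 24.2 RPKM in MDA-MB-231, and was not called. TGFBI, another adhesion protein of the matrix, was the furthest to the other side at 7.71 RPKM in wild-type MEFs and 43.8 RPKM in MDA-MB-231, and was not called (-38.3 points).

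Genes that finish and cut collagen were called more often higher than lower in MEFs, where the shares over all ranked genes were 3.86% and 3.8%. Of 18 collagen processing genes, 4 were higher and none lower: LOXL1 and LOXL3, which crosslink fibres, PCOLCE, an enhancer of procollagen cleavage, and P4HA3, a prolyl hydroxylase subunit. LOXL1 stood at 253 RPKM in wild-type MEFs and 3.31 RPKM in MDA-MB-231. Of 20 ranked matrix proteases and inhibitors, 7 were higher and 1 lower, the second count near the background (median 25.2 points). The gelatinase MMP2 stood at 67.4 RPKM in wild-type MEFs and 0.172 RPKM in MDA-MB-231, and the collagenase MMP13 at 53.4 and 0.0213 RPKM in the same libraries. The lower member was MMP15, a membrane-bound protease, at 1.18 RPKM in wild-type MEFs and 9.26 RPKM in MDA-MB-231 (-51.7 points), and PLAT, tissue plasminogen activator, leaned the same way without being called, at 7.35 RPKM in MEFs and 114 RPKM in MDA-MB-231.

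Contractile genes split into a group that was low in MDA-MB-231 and a group with higher levels in both. ACTA2, smooth muscle alpha-actin, stood at 1573 RPKM in wild-type MEFs and 0.486 RPKM in MDA-MB-231, and at 1305 RPKM in knockout MEFs and 0.390 RPKM in MDA-MB-231 siLARP7. TAGLN, the actin-binding protein transgelin, stood at 1324 RPKM in wild-type MEFs and 1.07 RPKM in MDA-MB-231, and at 1296 RPKM in knockout MEFs and 1.36 RPKM in MDA-MB-231 siLARP7. Calponin (CNN1) stood at 100 RPKM in wild-type MEFs and 0.0343 RPKM in MDA-MB-231, and the enteric actin ACTG2 at 96.7 RPKM in wild-type MEFs and 0 in MDA-MB-231, where 3 reads would be about 0.0159 RPKM. With LMOD1 and MYH11 these made 6 of 14 ranked members called higher and none lower, against 3.86% and 3.8% of all ranked genes (median 33.5 points). The members expressed in both included the myosin light chain MYL9, at 359 RPKM in wild-type MEFs and 97.0 RPKM in MDA-MB-231 (1.63 points), and the tropomyosin TPM1, at 242 RPKM in wild-type MEFs and 10.8 RPKM in MDA-MB-231. MYH11, the smooth muscle myosin heavy chain, was at 8.48 RPKM in wild-type MEFs and 0.213 RPKM in MDA-MB-231 (52.9 points), and was not called between knockout MEFs and MDA-MB-231 siLARP7 (41.3 points).

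Several smooth muscle genes are known to be driven by serum response factor, which binds the CArG box. Only its exact form was searched, CC, then 6 bases of A or T, then GG, so altered forms would be missed. The human promoter of ACTG2 is shown because its window alone, among those of the called contractile genes, holds that motif. Of the 6 called genes 4 have windows in the RefSeq table, 5 windows in all, and those of CNN1, ACTA2 and LMOD1 hold no match in the 250 bases before the start. The motif reads the same on both strands and was found in 407 of 35116 windows of the table (1.16%), and in 5 of 30 windows of the 11 contractile genes listed there. Apart from that of ACTG2, the contractile windows with a match belong to genes that were not called. The ACTG2 window lies at chr2:73892758-73893007 on the plus strand of GRCh38.p14 and is written 5′ to 3′ in lower case, with the 2 CArG boxes in capitals.
ACTG2: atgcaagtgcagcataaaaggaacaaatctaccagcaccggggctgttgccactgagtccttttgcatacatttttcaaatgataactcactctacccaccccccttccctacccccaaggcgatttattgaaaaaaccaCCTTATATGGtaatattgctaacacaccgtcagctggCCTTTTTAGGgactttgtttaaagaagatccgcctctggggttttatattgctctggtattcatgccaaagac
The boxes begin 110 and 73 bases before the start. Neither library measured binding at this window, so the match is a description of the letters.

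**Figure D2:**
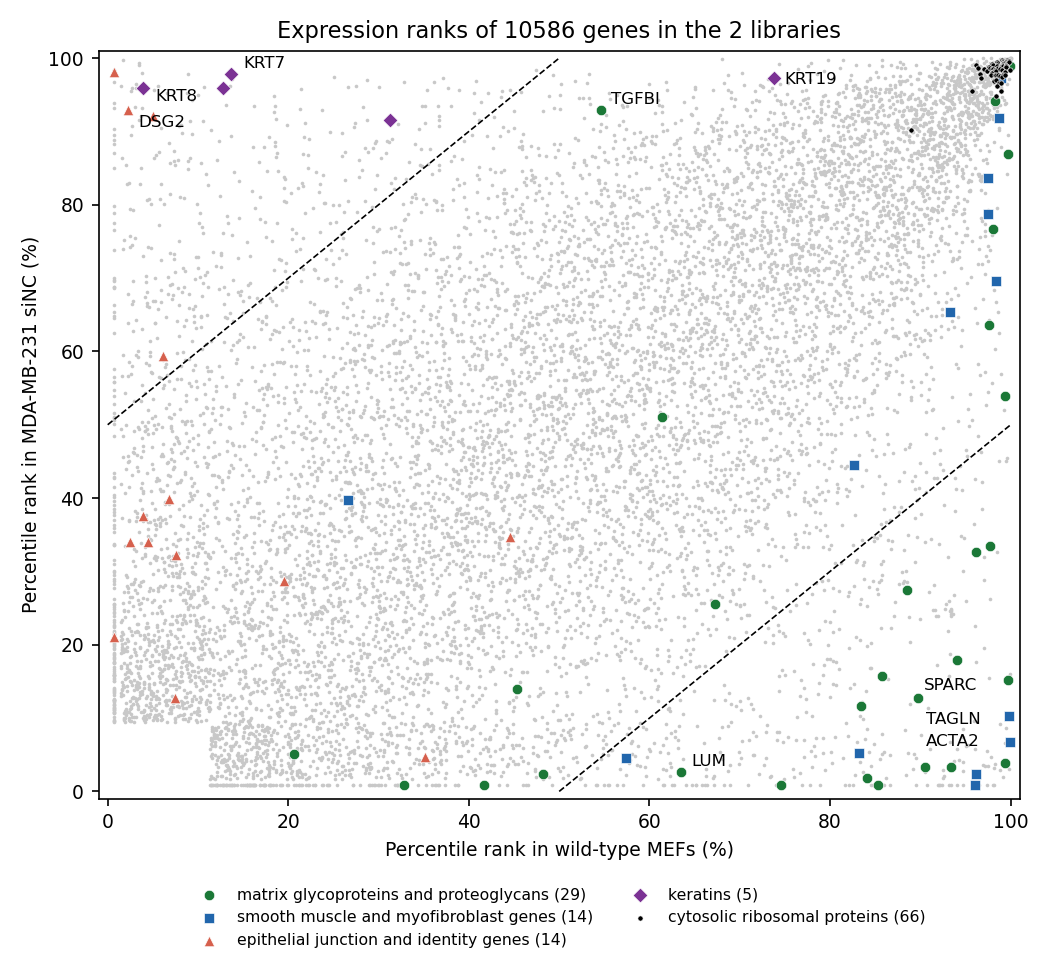
Each grey point is 1 of the 10586 ranked genes, with its percentile rank in wild-type MEFs on the horizontal axis and in MDA-MB-231 siNC on the vertical axis (both in %), coloured symbols are 5 gene lists, and dashed lines mark 50 points. Matrix and contractile genes such as ACTA2, TAGLN and SPARC lie at the lower right, KRT8, KRT7 and DSG2 at the upper left, and the 66 ribosomal protein genes in the upper right corner.

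Transcription factors and surface proteins of mesenchymal cells divided the cells less simply. Of 20 ranked members of the list, 10 were higher in MEFs and 1 was lower, against 3.86% and 3.8% of all ranked genes, with a median of 49.8 points. Some of these genes also stand on the fibroblast list. THY1, a surface glycoprotein of fibroblasts, stood at 200 RPKM in wild-type MEFs and 0 in MDA-MB-231, and at 240 RPKM in knockout MEFs and 0.0158 RPKM in MDA-MB-231 siLARP7. PRRX1, a limb and mesenchyme homeobox factor, stood at 52.4 RPKM in wild-type MEFs and 0.0538 RPKM in MDA-MB-231, and at 56.1 RPKM in knockout MEFs and 0.0659 RPKM in MDA-MB-231 siLARP7. Each MEF library was thus far above each MDA-MB-231 library for both genes. TWIST1 and SNAI1, repressors of epithelial genes, stood at 73.7 and 73.1 RPKM in wild-type MEFs and at 0.813 and 0.610 RPKM in MDA-MB-231. Vimentin (VIM), the intermediate filament of mesenchymal cells, was high in both, at 698 RPKM in wild-type MEFs and 149 RPKM in MDA-MB-231 (1.11 points), and HCC1937 siNC held 1.69 RPKM. S100A4, a calcium-binding protein of motile cells, was at 980 RPKM in wild-type MEFs and 466 RPKM in MDA-MB-231 (0.20 points). ZEB1, another repressor of epithelial genes, was at 7.93 RPKM in wild-type MEFs and 3.78 RPKM in MDA-MB-231, with 0.213 RPKM in HCC1937 siNC. The lower gene was NT5E, the surface enzyme CD73, at 3.96 RPKM in wild-type MEFs and 81.5 RPKM in MDA-MB-231 (-60.6 points).

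Keratins and junction genes marked the other side. Keratin genes KRT7, KRT8, KRT18 and KRT80, which build intermediate filaments of epithelia, were lower in MEFs, 4 of 5 ranked members, against 3.8% of all ranked genes, with a list median of -83.2 points. KRT7 stood at 1.18 RPKM in wild-type MEFs and 114 RPKM in MDA-MB-231, and at 0.942 RPKM in knockout MEFs and 132 RPKM in MDA-MB-231 siLARP7. KRT18 stood at 1.12 RPKM in wild-type MEFs and 68.3 RPKM in MDA-MB-231, and at 1.91 RPKM in knockout MEFs and 83.5 RPKM in MDA-MB-231 siLARP7. No MEF library came near an MDA-MB-231 library for either. KRT19 was expressed in both cells, at 16.1 RPKM in wild-type MEFs and 97.5 RPKM in MDA-MB-231 (-23.5 points), and was not called. Of the 15 listed keratins, 8 were joined but under the minimum in both libraries, among them the basal keratins KRT5 and KRT14. The count thus covers only keratins that at least 1 of the cells expressed.

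Of 14 ranked epithelial junction and identity genes, 4 were lower in MEFs and none was higher, against 3.8% and 3.86% of all ranked genes (median -30.5 points). DSG2, a desmosomal cadherin, stood at 0.0262 RPKM in wild-type MEFs and 43.8 RPKM in MDA-MB-231. CLDN7, a claudin of tight junctions, and DSP, the plaque protein desmoplakin, were also called, DSP at 0.290 RPKM in wild-type MEFs and 7.68 RPKM in MDA-MB-231. EPCAM, an adhesion protein of epithelia, was low in both at 0.133 RPKM in wild-type MEFs and 3.50 RPKM in MDA-MB-231, and HCC1937 siNC held 67.4 RPKM. CDH1, E-cadherin, was under the minimum at 0.0119 RPKM in wild-type MEFs and 0.835 RPKM in MDA-MB-231, with 30.2 RPKM in HCC1937 siNC. The median rank of the ranked members was 5.54 in wild-type MEFs, 86.8 in HCC1937 siNC and 34.3 in MDA-MB-231. These members had to reach the minimum in MEFs or MDA-MB-231, so the order of the medians describes the filter as well as the cells. Among members left out, the epithelial genes ESRP1 and RAB25 stood at 0.0172 and 0.0486 RPKM in wild-type MEFs and at 0 in MDA-MB-231. HCC1937 siNC held 41.0 and 58.3 RPKM of them.

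Laminins and integrins held calls in both directions. LAMB3, the beta chain of the epithelial laminin 332, stood at 0.0943 RPKM in wild-type MEFs and 68.0 RPKM in MDA-MB-231, and was the only 1 of 8 ranked laminins called. LAMA3, the alpha chain of that laminin, leaned the same way at -40.5 points without being called. Of the other laminins, LAMB1 and LAMA2 had differences of 6.00 and 15.99 points. Of 13 ranked integrin chains 1 was higher and 3 lower, against 3.86% and 3.8% of all ranked genes, with a median of 3.58 points. The chains that pair as a laminin receptor, ITGA6 and ITGB4, were both lower in MEFs, at 4.87 and 0.216 RPKM in wild-type MEFs and at 49.6 and 24.0 RPKM in MDA-MB-231. ITGA2, a collagen-binding chain, was the third lower member, and ITGA11, a collagen receptor of fibroblasts, was the 1 higher, at 26.5 RPKM in wild-type MEFs and 0.0390 RPKM in MDA-MB-231. ITGB1, the beta chain they share with most others, ranked alike in both, at 489 RPKM in wild-type MEFs and 229 RPKM in MDA-MB-231 (0.12 points).

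**Figure D3:**
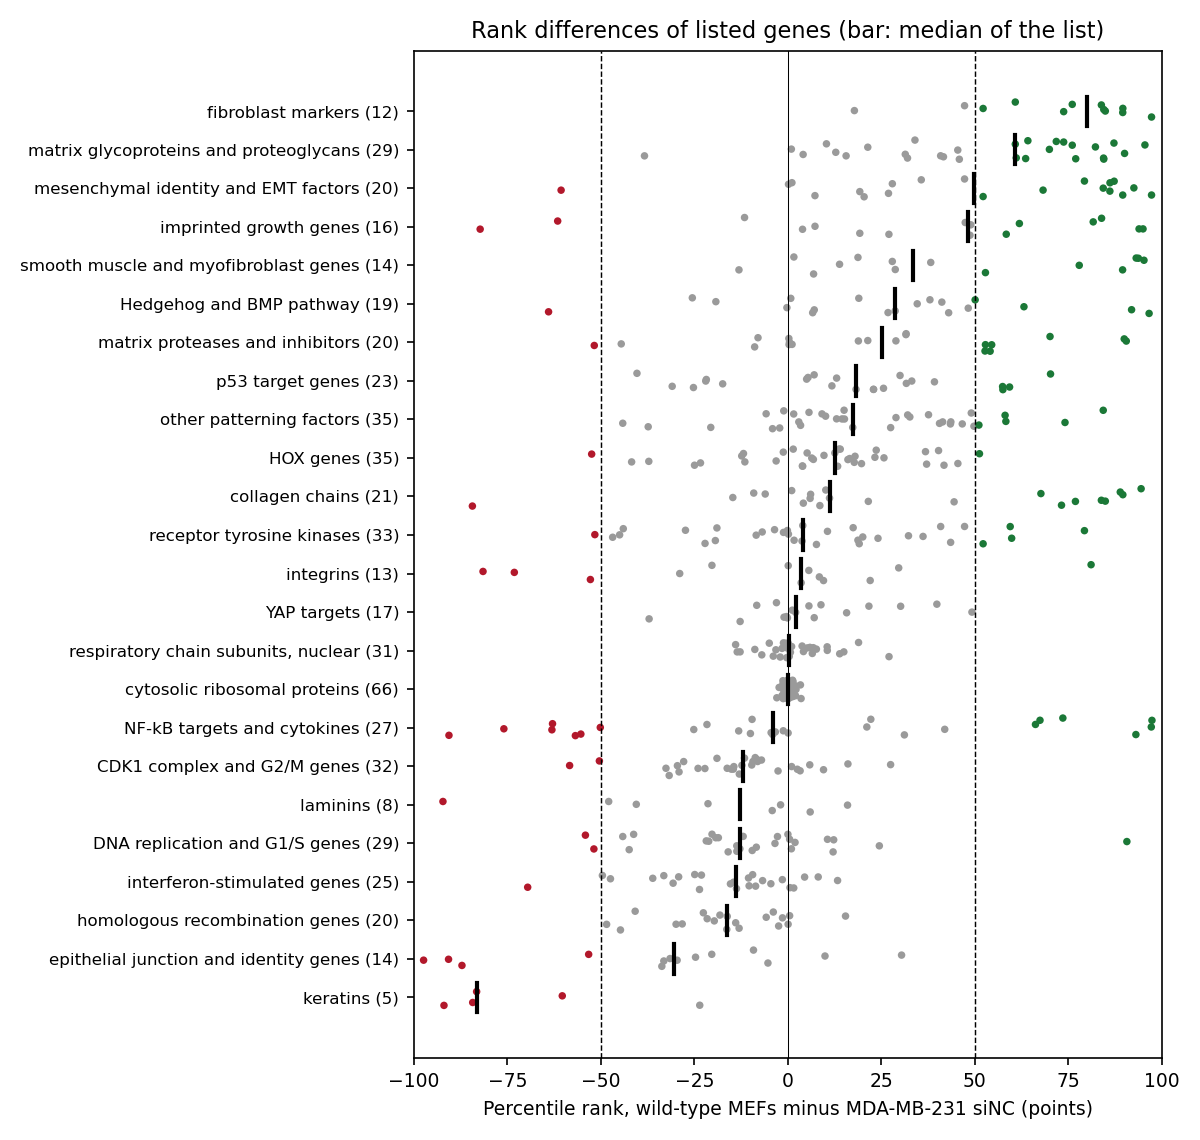
Points are ranked members of 24 gene lists, with the number of members after each name, placed by their percentile rank in wild-type MEFs minus that in MDA-MB-231 siNC (points, horizontal axis), green at 50 or more, red at -50 or less and grey between, with vertical scatter only to separate them. Black bars are list medians, from 79.96 points for fibroblast markers to -83.2 points for keratins, with ribosomal proteins packed at 0.06 points.

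Among protein-coding genes of at least 10 RPKM called in both pairs of libraries, the 15 with the highest differences were led by secreted and surface proteins. CCL7, a chemokine for monocytes, stood at 215 RPKM in wild-type MEFs and 0 in MDA-MB-231, and at 502 RPKM in knockout MEFs and 0 in MDA-MB-231 siLARP7. CXCL5, a chemokine for neutrophils, stood at 446 RPKM in wild-type MEFs and 0.0159 RPKM in MDA-MB-231. SPP1, the secreted phosphoprotein osteopontin, stood at 1213 RPKM in wild-type MEFs and 0.0705 RPKM in MDA-MB-231, and at 1934 RPKM in knockout MEFs and 0 in MDA-MB-231 siLARP7. GREM1, which binds and blocks bone morphogenetic proteins, stood at 148 RPKM in wild-type MEFs and 0 in MDA-MB-231. The others were THY1, FBLN2, COL5A2, CNN1 and ACTG2, described above, with IGF2, AEBP1, CRABP1, MGP, CD248 and IL1RL1. AEBP1, a collagen-binding protein, stood at 331 RPKM in wild-type MEFs and 0.0529 RPKM in MDA-MB-231. CRABP1, which binds retinoic acid in the cytoplasm, stood at 109 RPKM in wild-type MEFs and 0 in MDA-MB-231, although HCC1937 siNC held 17.8 RPKM.

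The 15 with the lowest differences held epithelial genes and genes of secretion and immunity. SAA1 and SAA2, acute phase proteins, stood at 0.0109 and 0 RPKM in wild-type MEFs and at 590 and 83.5 RPKM in MDA-MB-231. These 2 genes are near-identical copies, so the split of reads between them is uncertain. DKK1, a secreted inhibitor of Wnt signalling, stood at 0.0782 RPKM in wild-type MEFs and 277 RPKM in MDA-MB-231, and at 0.177 RPKM in knockout MEFs and 254 RPKM in MDA-MB-231 siLARP7. HCC1937 siNC held 1.55 RPKM, so its high level was not shared by the other cancer line. CD74, the invariant chain of class II antigen presentation, stood at 0.0769 RPKM in wild-type MEFs and 206 RPKM in MDA-MB-231. TNFSF10, the death ligand TRAIL, stood at 0.0412 RPKM in wild-type MEFs and 69.2 RPKM in MDA-MB-231, with 1.90 RPKM in HCC1937 siNC. CDCP1, a surface substrate of Src kinases, stood at 0.0401 RPKM in wild-type MEFs and 63.4 RPKM in MDA-MB-231. Other members were LAMB3, KRT8, DSG2, PDZK1IP1, STMN3, VSTM2L, BEST1 and JSRP1. KRT8, BEST1 and JSRP1 share exon bases with another gene that had more RPKM in MDA-MB-231, and since it is not given whether strand was counted, their levels are uncertain.

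**Figure D4:**
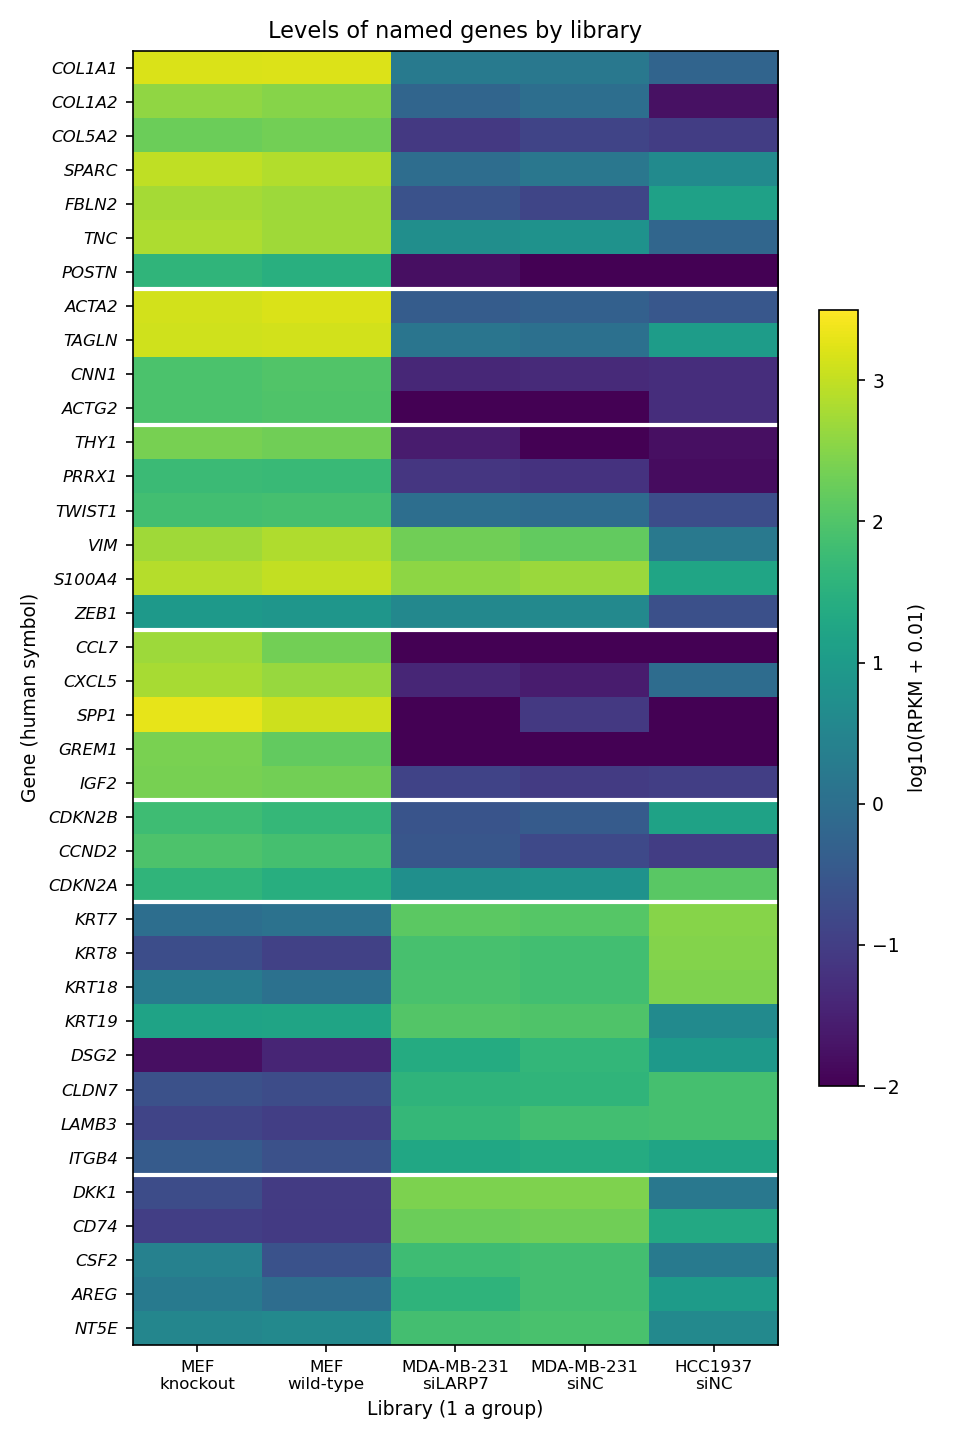
Colour gives log10(RPKM + 0.01) of named genes (vertical axis, white lines between groups of genes) in 5 libraries (horizontal axis, 1 a group). Matrix, contractile and secreted genes are brighter in both MEF columns than in both MDA-MB-231 columns. KRT7, KRT8, LAMB3 and DKK1 are the reverse, and VIM and S100A4 are bright in MEFs and MDA-MB-231 and darker in HCC1937.

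Overlap of this kind was about as frequent among called genes as among all ranked genes. In the human annotation, 70 of the genes higher in MEFs (17.1%) and 66 of those lower (16.4%) shared exon bases with another gene that had more RPKM in MDA-MB-231, against 18.4% of all ranked genes. Among genes named here it touches, beside KRT8, BEST1 and JSRP1, GAPDH, MT-CO3, MT-ATP8, RIN1, B3GNT4, ACTA2, TAGLN, TPM1, MYH11, LOXL3, P4HA3, CLDN7, LARP7, CD68, IFITM1, HOXA7, NR4A1, PYCR1, S100A1 and MDM2. SOX10 is touched as well. For ACTA2 and TAGLN the human value is low, and the effect on it of reads shared with a neighbour was not tested.

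Imprinted growth genes, which are read from 1 parental allele and often act in fetal growth, leaned to MEFs. Of 16 ranked members, 6 were higher and 2 lower, against 3.86% and 3.8% of all ranked genes, with a median of 48.1 points. IGF2, a fetal growth factor, stood at 215 RPKM in wild-type MEFs and 0.0809 RPKM in MDA-MB-231, and H19, the noncoding RNA of the same locus, at 148 and 0.108 RPKM in the same libraries. Both neighbours were thus high in MEFs and near 0 in MDA-MB-231. MEG3, a noncoding RNA, and NDN, which encodes necdin, were at 24.7 and 28.2 RPKM in wild-type MEFs and at 0 in MDA-MB-231. PHLDA2, which restrains placental growth, went the other way at 0.653 RPKM in wild-type MEFs and 36.2 RPKM in MDA-MB-231 (-82.2 points), as did SGCE, a sarcoglycan, at 2.03 RPKM in wild-type MEFs and 19.2 RPKM in MDA-MB-231.

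Genes of body position were mostly expressed at low levels. Of 35 ranked HOX genes, 1 was higher, HOXA7, and 1 lower, HOXD9, close to the 3.86% and 3.8% of all ranked genes, with a median of 12.6 points. HOXD9 stood at 2.49 RPKM in wild-type MEFs and 14.7 RPKM in MDA-MB-231, and HCC1937 siNC held 0.0587 RPKM. Of 35 other patterning factors, 5 were higher and none lower (median 17.4 points), led by FOXC2 and TBX15, factors of mesoderm, at 30.9 and 18.4 RPKM in wild-type MEFs and at 0.0120 and 0.0371 RPKM in MDA-MB-231.

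Growth factor pathways differed in single members. In the Hedgehog and BMP list, 4 of 19 were higher and 1 lower, against 3.86% and 3.8% of all ranked genes (median 28.7 points). The lower member was NOG, the BMP antagonist noggin, which stood at 3.45 RPKM in wild-type MEFs and 83.5 RPKM in MDA-MB-231. The list of Wnt antagonists and feedback targets parted, with 2 of its 11 ranked members higher and 1 lower. DKK3 stood at 21.5 RPKM in wild-type MEFs and 0.319 RPKM in MDA-MB-231, and SFRP1 at 7.07 RPKM in wild-type MEFs and 0.00848 RPKM in MDA-MB-231, while DKK1 was the lower member. Among 5 ranked ligands of the EGF family, EREG was higher at 21.7 RPKM in wild-type MEFs and 1.46 RPKM in MDA-MB-231, and AREG lower at 0.892 RPKM in wild-type MEFs and 70.4 RPKM in MDA-MB-231. Of 33 receptor tyrosine kinases, 4 were higher and 1 lower: DDR2, a collagen receptor, PDGFRB, PTK7 and ROR2 were higher, and ROR1 was lower, which for the lower side is near the background. DDR2 stood at 26.0 RPKM in wild-type MEFs and 0.150 RPKM in MDA-MB-231.

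Genes tied to the growth regulators YAP and MAP kinase were not called, although at the 3.86% and 3.8% of all ranked genes lists of their size would hold few calls. None of 17 YAP pathway and target genes was called (median 2.10 points), nor any of 14 MAP kinase feedback genes (median 7.52 points). LATS2, a kinase that restrains YAP, was just short of the rule at 49.2 points, and WWC1, an upstream regulator of the pathway, was lower in the depleted pair (-53.6 points) and at -37.1 points in the first. CYR61, a matricellular YAP target, stood at 497 RPKM in wild-type MEFs and 544 RPKM in MDA-MB-231, and AXL, a receptor kinase counted among the targets, at 196 RPKM in wild-type MEFs and 125 RPKM in MDA-MB-231. HCC1937 siNC held 85.3 RPKM of CYR61 and 18.7 RPKM of AXL. Of 17 immediate early genes, KLF2 and NR4A1 were higher in MEFs and none was lower.

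Cell cycle inhibitors included some of the clearest single differences. CDKN2B, an inhibitor of the G1 kinases, stood at 45.8 RPKM in wild-type MEFs and 0.368 RPKM in MDA-MB-231, and at 63.3 RPKM in knockout MEFs and 0.263 RPKM in MDA-MB-231 siLARP7. MTAP, an enzyme of methionine salvage whose gene neighbours CDKN2A and CDKN2B, stood at 36.4 RPKM in wild-type MEFs and 0.787 RPKM in MDA-MB-231. The MEF libraries stood far above the MDA-MB-231 libraries for both, and HCC1937 siNC held 14.5 and 6.21 RPKM. CDKN2A itself was not called, at 28.0 RPKM in wild-type MEFs and 6.21 RPKM in MDA-MB-231 (32.3 points). CDKN1A, the p53-induced inhibitor p21, stood at 259 RPKM in wild-type MEFs and 9.31 RPKM in MDA-MB-231 (33.2 points). Of 23 ranked p53 target genes, 4 were higher and none lower, against 3.86% and 3.8% of all ranked genes, BTG2, ZMAT3, AEN and EDA2R, with a median of 18.3 points.

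Proliferation genes had somewhat lower ranks in MEFs. Of 32 genes of the CDK1 complex and of mitosis, 2 were lower in MEFs and none higher, near the background of 3.8% and 3.86%, with a median of -11.9 points. They were CENPF, a kinetochore protein, at 2.79 RPKM in wild-type MEFs and 23.0 RPKM in MDA-MB-231, and NUSAP1, a spindle protein, at 4.85 RPKM in wild-type MEFs and 37.0 RPKM in MDA-MB-231. In the same list the median was -32.2 points between knockout MEFs and MDA-MB-231 siLARP7, where 6 members were lower. Of 29 replication genes 1 was higher and 2 lower: CCND2, cyclin D2, stood at 74.3 RPKM in wild-type MEFs and 0.152 RPKM in MDA-MB-231, and TYMS, thymidylate synthase, was among the lower. No homologous recombination gene of 20 was called (median -16.2 points), and none of 10 ranked genes of the 7SK particle and its kinase (median 8.37 points).

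Immune genes were divided, and several depended on the pair of libraries. Of 27 NF-kB targets and cytokines, 6 were higher in wild-type MEFs and 7 lower, against 3.86% and 3.8% of all ranked genes. Higher were CCL7, CXCL5, PTGS2, CXCL12, VCAM1 and CCL20. PTGS2, the inducible cyclooxygenase, stood at 170 RPKM in wild-type MEFs and 0.237 RPKM in MDA-MB-231. Lower were CSF2, IL24, IL1A, BIRC3, ICAM1, IL1B and CXCL2. CSF2, the growth factor GM-CSF, stood at 0.237 RPKM in wild-type MEFs and 72.2 RPKM in MDA-MB-231, and at 2.55 RPKM in knockout MEFs and 62.5 RPKM in MDA-MB-231 siLARP7. Between knockout MEFs and MDA-MB-231 siLARP7, 7 members were higher and only CSF2 was lower. ICAM1, an adhesion receptor for leukocytes, stood at 4.44 RPKM in wild-type MEFs and 64.8 RPKM in MDA-MB-231 (-56.8 points), and at 18.1 RPKM in knockout MEFs and 41.8 RPKM in MDA-MB-231 siLARP7 (-16.0 points).

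Interferon-stimulated genes also depended on the pair. Of 25 ranked members 1 was lower, IFITM1, and none higher, near the 3.8% and 3.86% of all ranked genes, with a median of -13.7 points, and between knockout MEFs and MDA-MB-231 siLARP7 the median was 7.38 points. ISG15, a ubiquitin-like modifier, stood at 5.70 RPKM in wild-type MEFs and 61.2 RPKM in MDA-MB-231 (-49.6 points), and at 82.6 RPKM in knockout MEFs and 75.9 RPKM in MDA-MB-231 siLARP7 (-1.39 points). Complement and acute phase genes had a median of -32.2 points over 6 ranked members in the first pair and -3.48 points in the second, with CD55, a complement inhibitor, the 1 lower gene in the first. The medians of these immune lists thus differed between the control pair and the depleted pair. For ISG15, and for the complement protein C3, the levels differed mainly between the MEF libraries. C3 stood at 8.51 RPKM in wild-type and 38.7 RPKM in knockout MEFs, and at 46.6 and 48.0 RPKM in MDA-MB-231 siNC and siLARP7.

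The metabolic lists held 0 to 3 called genes each. Of 23 hypoxia and glycolysis genes none was higher and 2 were lower in MEFs, against 3.86% and 3.8% of all ranked genes: NDRG1, a hypoxia-induced gene, at 2.92 RPKM in wild-type MEFs and 89.9 RPKM in MDA-MB-231, and SLC2A3, the glucose transporter GLUT3, at 0.490 RPKM in wild-type MEFs and 10.3 RPKM in MDA-MB-231. GAPDH, the glycolytic dehydrogenase, was at 729 RPKM in wild-type MEFs and 774 RPKM in MDA-MB-231. Of 18 genes of serine, one-carbon and amino acid synthesis 1 was higher and 2 were lower. PHGDH, the entry enzyme of serine synthesis, was the higher at 95.8 RPKM in wild-type MEFs and 4.64 RPKM in MDA-MB-231 (53.4 points), whereas PYCR1 of proline synthesis and CBS of cysteine synthesis were lower. HMOX1, a heme-degrading enzyme, was the only 1 of 13 NRF2 genes called, at 113 RPKM in wild-type MEFs and 5.22 RPKM in MDA-MB-231 (50.5 points), and it was not called in the depleted pair (36.5 points).

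In the remaining lists at most 2 genes were called in either direction, against 3.86% and 3.8% of all ranked genes. Of 16 genes of the IGF system, IGF2 and IGFBP5 were higher and none was lower (median 8.49 points). Of 21 cholesterol genes 1 was higher and none lower (median 8.33 points), and of 17 annexin and S100 genes, S100A1 was higher and S100A3 lower (median 1.21 points). No gene was called among 9 of class I antigen processing (median -12.6 points), 12 of fatty acid synthesis (median -5.90 points), 7 connexins (median 18.7 points), 4 ranked cancer-testis and germline genes (median 2.92 points) and 12 of the mitochondrial genome (-1.08 to 0.08 points). Of 10 nuclear noncoding RNAs, H19 and MEG3 were higher and XIST, the RNA of the inactive X chromosome, was lower.

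Where the called genes stood in HCC1937 differed by direction. The 409 genes higher in wild-type MEFs had a median rank of 82.0 in wild-type MEFs, 15.2 in HCC1937 siNC and 8.74 in MDA-MB-231 siNC. The 402 lower genes had a median rank of 10.3 in wild-type MEFs, 66.9 in HCC1937 siNC and 79.9 in MDA-MB-231 siNC. Of the higher genes, 224 (54.8%) were under 1 RPKM in HCC1937, and of the lower genes 47 (11.7%), against 19.3% of all ranked genes. Of the higher genes, 214 were under 1 RPKM in MDA-MB-231, 54 of them at 0, and of the lower genes 218 were under 1 RPKM in MEFs, 37 of them at 0. Genes that reached the minimum through a single library had to differ, so these counts describe the rule as well as the cells.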

How the data were processed

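RNA was sequenced in 6 libraries, and 2 of them are compared here. The deposited tables hold RPKM for each gene in each library, per the file headers, and these normalized values are what was ranked. The submitters' processing notes name cutadapt, FastQC, STAR and the build GRCh37, without versions. The mouse build, the counting of strand and any selection of poly(A) RNA are not given in the sources used here. Total RNA and an Illumina library kit are named in the labels' protocols.

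From the 49089 mouse and 63568 human entries, 47 pseudoautosomal repeats and every name that occurs more than once in a table were left out, and 15277 names matched. A shared name is not proof of orthology, and listed genes with repeated names, such as BGN and ELN, are not analysed here. Percentile ranks (average for ties) were taken over genes at 1 RPKM or more in either library, with Python 3.11.15, pandas 2.3.3, NumPy 2.4.6, SciPy 1.17.1 and matplotlib 3.10.9. No test was possible with 1 library a group, and the rule of 50 points stands in for one. The ranking was tested on simulated data.

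Depth came from the size of 1 read. All short values of single-exon human genes gave whole reads within 0.02 in each library. In wild-type MEFs, where no gene lengths were used, 27.1% of low values were whole within 0.03, against 5.99% at other depths. Values of 3 reads rest on GENCODE release 29 exon lengths. Exon overlap used the same release, which matched 10523 ranked genes by ID and 58 by symbol. Promoter windows are those of the RefSeq table, matched by symbol, and since they covered 77.6% of ranked genes a check of promoter composition would be void and was not made.

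The members and the 52 gene lists (1035 genes, 952 joined, 831 ranked) were chosen with earlier results of these data known. Named genes are the 15 highest and 15 lowest protein-coding genes of 10 RPKM or more called in both pairs, up to 4 listed members with the widest difference and 2 with the highest mean rank per list, LARP7, and the 10 highest RPKM per library. Further genes were picked once their values had been seen: called list members outside the rule (BIRC3, CCL20, COL13A1, CXCL12, CXCL2, ICAM1, IL1A, IL1B, IL24, LMOD1, MMP15, MYH11, NT5E, ROR1, SGCE, SPARC, TWIST1, VCAM1), uncalled members given for contrast (COL27A1, COL4A1, DPT, EPCAM, FN1, LAMA2, LAMB1, MDM2, PDGFRA, PLAT, TGFBI, TPM1, ZEB1), the genes at the thresholds, and those called between the MEF libraries. A few genes chosen this way are not reported here. Alternatives were level minimum, size rule, scale, gene class, library pair and human line.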

Additional observations from a re-analysis of the deposited data

How the results depend on the processing

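The counts of 409 higher and 402 lower genes stayed within 1.5 times under a minimum of 5 RPKM (473 and 472), log2(RPKM + 1) differences centred on their median and called at 3 (314 and 282), protein-coding genes alone (397 and 391), the knockout MEF and MDA-MB-231 siLARP7 libraries (465 and 410) and HCC1937 siNC as the human library (442 and 397). They moved further without a minimum (240 and 212 of 14084 genes), at 40 points (672 and 682), at 60 points (246 and 225), with log2(RPKM + 0.1) (768 and 910) and, chosen after seeing the data, without human genes whose exons overlap another gene (228 and 223 of 5347 genes, fewer genes ranked). The run with HCC1937 siNC in place of MDA-MB-231 kept the same 10586 genes. In it, 274 of the higher and 199 of the lower genes were called the same way. There the rank difference of HOXD9 was 20.6 points, the rank difference of NOG 11.8, the rank difference of SFRP1 -11.0 and the rank difference of SLC2A3 0.72, each of the opposite sign to that against MDA-MB-231, and the cause was not tested. No other called gene named by the rule changed sign under an alternative that ranked it, but 32 of these genes lost their call without a minimum, 30 with HCC1937 siNC, 20 with log2(RPKM + 1) and 10 each at 5 RPKM and in the depleted pair. Medians of the 52 lists moved by 10 points or more in 18 lists with HCC1937 siNC, 17 without overlapping genes, 14 at 5 RPKM, 11 without a minimum and 8 in the depleted pair. No paired analysis was possible because each group holds 1 library. With 1 library a group, the spread between cultures, the passage of the MEFs and the effect of siNC could not be measured.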
